A study of Mus musculus with 3 samples.

Results

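This account follows 6 genes of cellular iron handling, Fth1, Ftl1, Hmox1, Slc40a1, Slc11a1 and Tfrc, through the cells of the mouse meninges. They are 6 of the 27998 genes counted in the single cell RNA sequencing (scRNAseq) data, were taken by their gene symbols, and were followed in 7057 cells. Meningeal cells came from male C57BL/6J mice of 10 to 12 weeks, and each of the 3 libraries pooled 4 mice. HC replicate 1 and HC replicate 2 were pools of unstressed home cage (HC) mice. CSD replicate 1 was a pool of mice exposed to chronic social defeat (CSD) for 14 days and chosen as stress-susceptible by urine scent marking and the open field test, with social interaction also scored. All pools were sorted for live nucleated cells (DAPI- DRAQ5+) and loaded on a single 10x Genomics chip. Stress was represented by a single pool, so CSD and that pool cannot be told apart, and p-values for CSD rest on the spread between the 2 HC pools and on spread borrowed across genes.

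Iron that a cell does not use is stored inside ferritin, a hollow shell built from heavy chains (Fth1), which oxidise iron, and light chains (Ftl1), which help to deposit the mineral core. Hmox1 encodes haem oxygenase 1, which opens the haem ring and frees its iron. Slc40a1 encodes ferroportin, the known exporter of cellular iron, Slc11a1 encodes Nramp1, which moves divalent metals out of the phagosome of macrophages and neutrophils, and Tfrc encodes the transferrin receptor, through which dividing cells and red cell precursors take up iron. Macrophages recycle iron from engulfed red cells, and iron regulatory proteins tune ferritin, ferroportin and transferrin receptor by binding short stem-loops in their messenger RNAs, the iron-responsive elements.

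The stem-loops are shown first because they tie the storage, export and uptake genes into a single regulatory group. Positions refer to mm10 (GRCm38), sequences were read from the GENCODE M21 transcripts, each window spans 25 bases, and capitals mark the bulged C and the 6-base loop. The motif searched on the sense strand of mature transcripts was CNNNNNCAGTGN with all 5 bases between the C and the loop paired to the 5 bases after it. Fth1 (ENSMUSG00000024661, chr19:9980598-9985098, + strand), Ftl1 (ENSMUSG00000050708, chr7:45457944-45459884, − strand) and Slc40a1 (ENSMUSG00000025993, chr1:45908068-45926523, − strand) each carried 1 match in the 5′ UTR, in exon 1 of all the annotated transcripts that hold it but Fth1-203, where it is in exon 2.
Fth1, chr19:9982734-9982758: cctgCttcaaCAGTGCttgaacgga
Ftl1, chr7:45459781-45459805: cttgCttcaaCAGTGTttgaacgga
Slc40a1, chr1:45925467-45925491: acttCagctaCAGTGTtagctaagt
The elements of the ferritin chains share the 5 paired bases on either side of the loop. They differ in the last base of the loop and in a base before the bulged C. The element of ferroportin has other stem letters around the loop of Ftl1. Tfrc (ENSMUSG00000022797, chr16:32608920-32632794, + strand) carried 4 matches, all in the 3′ UTR of exon 19.
Tfrc, chr16:32631221-32631245: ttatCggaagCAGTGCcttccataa
Tfrc, chr16:32631600-32631624: ttatCgggagCAGTGTcttccataa
Tfrc, chr16:32631665-32631689: atatCggagaCAGTGAtctccatat
Tfrc, chr16:32631712-32631736: ttatCgggaaCAGTGTttcccataa
No window of this form was found in Hmox1 (ENSMUSG00000005413, chr8:75093621-75100589, + strand) or Slc11a1 (ENSMUSG00000026177, chr1:74375195-74386062, + strand). For comparison, the motif was present in the 5′ UTR of 31 of 20916 genes (0.148%) and in the 3′ UTR of 129 of 21707 genes (0.594%). The 5′ matches were annotated in 4 of 5 coding transcripts of Fth1, in 1 of 2 of Ftl1 and in 1 of 4 of Slc40a1, and the Tfrc matches in 1 of 2. A match describes letters in an annotated transcript, and protein levels were not measured.

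The libraries held between 8814690 and 10206236 unique molecular identifiers (UMIs, single captured RNA molecules), and 2599 (HC replicate 1), 1702 (HC replicate 2) and 2756 (CSD replicate 1) cells with a median of 2212 to 2503 UMIs. HC replicate 2 stood apart: 24.1% of its UMIs lay in barcodes of at most 100 UMIs, taken as empty droplets, against 7.87% and 5.48%. B cell genes in neutrophil-like and monocyte-like cells gave an estimated share of free RNA of 28.6% to 35.2% per library. The estimate took every UMI of these genes in those cells as free RNA, with doublets kept, so it can be too high. Each pair of libraries shared 3 to 8 cell barcodes. Cells were grouped by clustering without the iron genes and named "-like" from marker lists, which gave 21 named types, of which 20 were ranked here, and 3 unnamed clusters. The named types carried the markers they were named for, among them P2ry12 and Tmem119 in microglia-like cells and Cxcr2 and Il1b in mature neutrophil-like cells. In what follows a level is in CPM, the UMIs of the gene in a type and library after scaling the summed UMIs of that type and library to a common total of 1000000, with mean ± SD over the 3 libraries (n = 3). Where 3 values stand in a row they belong to HC replicate 1, HC replicate 2, CSD replicate 1, in that order. Intervals and limits quoted for shares cover counting error only.

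The ferritin chains were by far the best measured members, with 104604 UMIs of Fth1 and 120104 of Ftl1 in cells, against 752 of Hmox1, 480 of Slc40a1, 374 of Slc11a1 and 223 of Tfrc. At least 94.0% of the cells of each ranked type carried a UMI of Fth1, and likewise of Ftl1, so their differences lay in amount. Free RNA was rich in ferritin too, at 4575 to 5723 CPM of Fth1 and 4216 to 4907 CPM of Ftl1 in the empty droplets. Types below those levels held a smaller share of ferritin RNA than the empty droplets did.

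Among ranked types of more than 38 cells, Fth1 was highest in border macrophage-like and mature neutrophil-like cells. Border macrophages, the resident phagocytes of the meninges, held 8985 and 9309 CPM of Fth1 in the HC libraries and 9437 CPM in the CSD library (9243 ± 233). Mature neutrophil-like cells held 8250 and 9052 CPM in HC and 8311 CPM in CSD (8538 ± 447). These 2 types overlapped each other and stood apart from the next, plasmacytoid dendritic cell-like cells, which make type I interferon (6611 ± 379 CPM). Fibroblast-like cells (6179 ± 885 CPM) and conventional dendritic cell-like cells (5345 ± 453 CPM) followed, and microglia-like cells (4566 ± 391 CPM) and monocyte-like cells (4161 ± 423 CPM) came below those. Endothelial cell-like cells had the highest mean, but their 38 cells ranged from 4078 to 22318 CPM between libraries and could not be placed in the order. The unranked oligodendrocyte and Schwann cell-like cells, 19 in all, were also above both leading types on the mean, at 16100, 8753 and 19282 CPM. At the other end, pro-B cell-like cells (2231 ± 142 CPM) lay above preneutrophil-like cells, the dividing neutrophil precursors, which were the lowest of the 20 types (1910 ± 152 CPM) and did not overlap with any other.

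**Figure D1:**
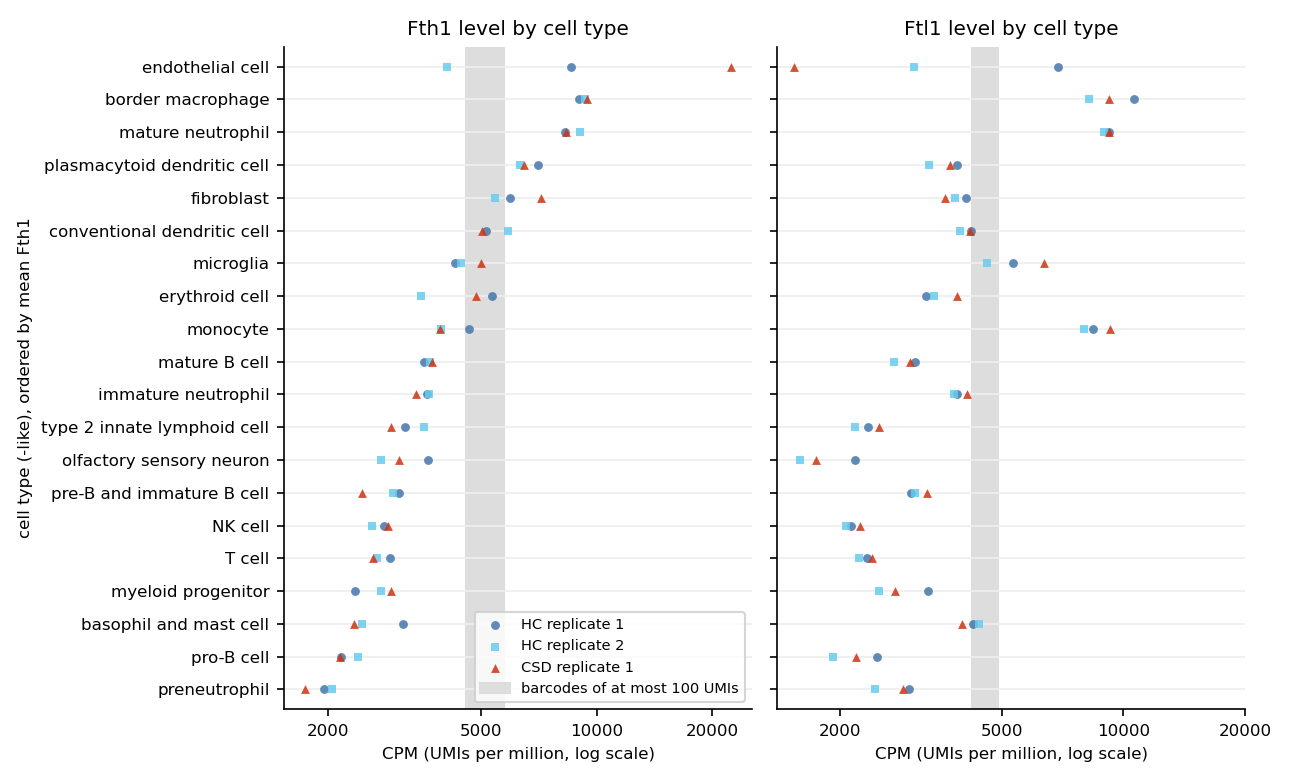
Levels of the heavy chain Fth1 (left) and the light chain Ftl1 (right) in CPM on a log axis, with a row for each of the 20 ranked cell types and a point for each library. The grey band spans the 3 libraries' levels in barcodes of at most 100 UMIs. Border macrophage-like and mature neutrophil-like cells lie to the right of the band for both chains, monocyte-like cells for Ftl1, and preneutrophil-like cells are lowest for Fth1.

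Ftl1 followed a different order. Border macrophage-like cells held 10614 and 8212 CPM in HC and 9189 CPM in CSD (9338 ± 1208), and mature neutrophil-like cells 9205 and 8962 CPM in HC and 9221 CPM in CSD (9130 ± 145). Monocyte-like cells, precursors of inflammatory macrophages, held 8416 and 7975 CPM in HC and 9283 CPM in CSD (8558 ± 665). The 3 types overlapped one another and were apart from microglia-like cells (5441 ± 878 CPM), which were in turn apart from the next ranked type but overlapped with the 38 endothelial cell-like cells (1539 to 6888 CPM). Monocyte-like cells thus stood in the leading group for the light chain and only in the middle of the order for the heavy chain. Olfactory sensory neuron-like cells (1838 ± 305 CPM), NK cell-like cells (2142 ± 89.7 CPM) and pro-B cell-like cells (2189 ± 272 CPM) were at the low end and overlapped. Part of the Ftl1 signal could be split with Gm10116 (ENSMUSG00000062382, chr13:74399694-74407346), a retrogene copy of Ftl1 with the same 25 bases at its element. Gm10116 held 2.11%, 1.27% and 1.40% as many UMIs as Ftl1. These shares count only the UMIs assigned to the copy. Reads that fit both genes were not measured, so the shares set no limit on the uncertainty of Ftl1 levels.

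The balance between the chains, in which the scaling of a library cancels, gave another order. Monocyte-like cells had 1.81 and 2.03 Ftl1 UMIs per Fth1 UMI in HC and 2.37 in CSD (2.07 ± 0.284). The unnamed cluster 15, led by Prtn3 and Ctsg together with genes of cell division, was similar at 2.28 ± 0.129. Plasmacytoid dendritic cell-like cells were at 0.551 ± 0.0277, olfactory sensory neuron-like cells at 0.584 ± 0.0161 and fibroblast-like cells at 0.634 ± 0.109, and every library of these 3 types lay below every library of monocyte-like cells. Microglia-like cells (1.19 ± 0.128), mature neutrophil-like cells (1.07 ± 0.0709) and border macrophage-like cells (1.01 ± 0.153) had close to equal UMI counts of both. Within border macrophage-like cells, the MHC class II-rich cluster had ratios of 0.880, 0.859 and 0.881, and the Lyve1-rich cluster 1.45, 1.03 and 1.23, without overlap. The Lyve1-rich cluster held only 7 cells in HC replicate 2. Both chains together made up 1.86% ± 0.104 of all UMIs in border macrophage-like cells and 1.77% ± 0.0303 in mature neutrophil-like cells, against 0.442% ± 0.0172 in pro-B cell-like cells.

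**Figure D2:**
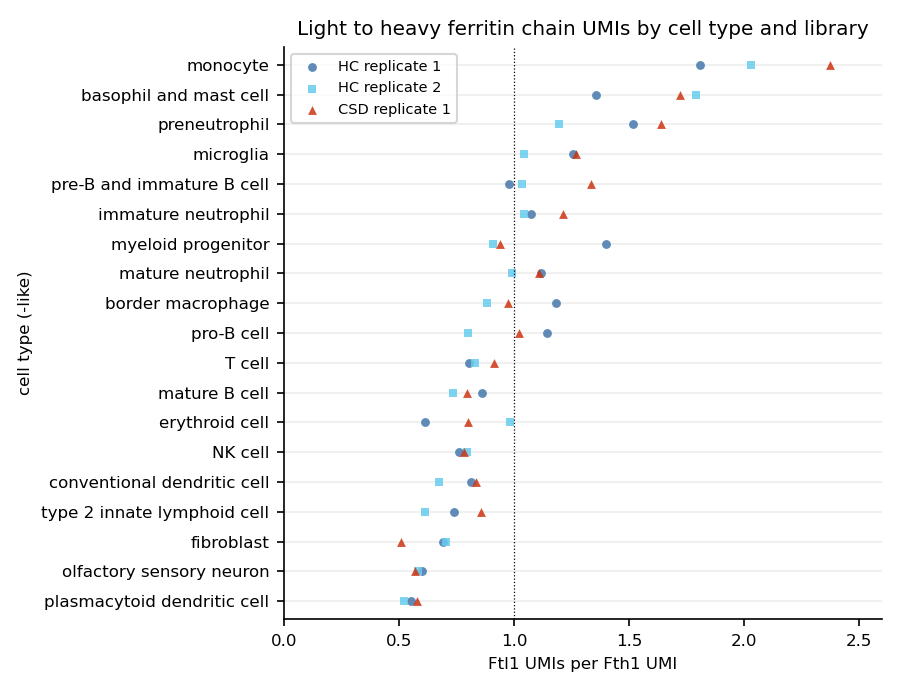
Ftl1 UMIs per Fth1 UMI in 19 cell types (rows; endothelial cell-like cells are left out for their 38 cells) with a point for each library; the dotted line marks equal counts. Monocyte-like cells are highest at 1.81 to 2.37, and plasmacytoid dendritic cell-like cells lowest at a mean of 0.551.

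Hmox1 was highest in myeloid phagocytes. Border macrophage-like cells held 121 and 78.8 CPM in HC and 114 CPM in CSD (105 ± 22.7), from 155 UMIs. Monocyte-like cells held 70.9 and 97.7 CPM in HC and 75.5 CPM in CSD (81.4 ± 14.3), from 148 UMIs. The 2 types overlapped. Microglia-like cells (46.7 ± 17.4 CPM) and mature neutrophil-like cells (46.5 ± 12.3 CPM) came next, while immature neutrophil-like cells (18.8 ± 3.76 CPM) and T cell-like cells (4.72 ± 2.06 CPM) were lower, and the empty droplets held 23.1 to 33.4 CPM. After each cell was thinned to 500 UMIs, a Hmox1 UMI was found in 22 of 304 (7.24%, exact 95% interval 4.59% to 10.8%), 2 of 56 and 6 of 111 border macrophage-like cells. The unthinned shares were 28.3%, 19.6% and 21.6%, at median depths of 2956.5, 2683.5 and 2264 UMIs. In NK cell-like cells, which should lack Hmox1, 0 of 82, 0 of 51 and 0 of 95 thinned cells had a UMI, which allows shares of up to 3.66%, 5.88% and 3.16%. Their median depths were 2092, 2081 and 2054 UMIs. Unthinned, they held 25.3, 0 and 4.52 CPM of Hmox1, from 6 UMIs.

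Slc40a1, the exporter, was carried mainly by the neutrophil lineage. The 3 neutrophil-like classes held 334 of its 480 UMIs (69.6%) while making up 40.3% of the cells; the same classes held 36.4% of the UMIs of each ferritin chain, 30.6% of Hmox1, 31.0% of Slc11a1 and 13.5% of Tfrc. Mature neutrophil-like cells held 71.7 and 80.6 CPM in HC and 43.6 CPM in CSD (65.3 ± 19.3). Immature neutrophil-like cells held 46.4 and 32.0 CPM in HC and 30.8 CPM in CSD (36.4 ± 8.67), and preneutrophil-like cells 30.3 and 32.0 CPM in HC and 18.5 CPM in CSD (26.9 ± 7.33). The empty droplets held 16.7, 18.8 and 16.1 CPM. In each of these neutrophil-like classes the CSD library was the lowest, though in immature neutrophil-like cells by little. The classes share the same libraries, and over all genes with a UMI in the 14 types compared further on, CSD lay below both HC libraries in 31.7% and above both in 28.2% of gene-by-type values. Microglia-like cells were within the same range (44.0 ± 15.5 CPM). Monocyte-like cells, by contrast, held 4.53 CPM in HC replicate 1, none in HC replicate 2 and 10.4 CPM in CSD, and no UMI was counted in fibroblast-like, plasmacytoid dendritic cell-like or pro-B cell-like cells. A count of 0 allows 3 UMIs per library, which is 5.65, 9.38 and 38.5 CPM in fibroblast-like cells, 24.1, 32.9 and 17.8 CPM in plasmacytoid dendritic cell-like cells and 30.5, 33.3 and 22.4 CPM in pro-B cell-like cells.

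Among border macrophage-like cells the exporter was uneven. HC replicate 1 held 47.5 CPM, HC replicate 2 6.57 CPM and CSD replicate 1 22.2 CPM. Of their 51 UMIs of Slc40a1, 46 came from the Lyve1-rich cluster (43, 0 and 3 UMIs), and the MHC class II-rich cluster gave 1, 1 and 3. In CPM the Lyve1-rich cluster held 81.3, 0 and 32.0, against 71.7, 80.6 and 43.6 in mature neutrophil-like cells. It was thus above that class in HC replicate 1 and below it in the other libraries. The Lyve1-rich cluster made up 168 of 304, 7 of 56 and 41 of 111 border macrophage-like cells, and the level in the whole type had the same order as that share.

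Thinned to 500 UMIs, mature neutrophil-like cells carried a Slc40a1 UMI in 23 of 452 (5.09%, exact 95% interval 3.25% to 7.54%) and 17 of 304 cells (5.59%, 3.29% to 8.80%) in HC, and in 19 of 751 (2.53%, 1.53% to 3.92%) in CSD. The unthinned shares were 9.29%, 11.5% and 6.92%. Monocyte-like cells carried none in 140, 111 and 133 thinned cells, which allows up to 2.14%, 2.70% and 2.26%. NK cell-like cells, as a background, carried 1 in 82, 0 in 51 and 1 in 95. The thinned share of the mature neutrophil-like cells of the CSD library lay above the 1.05% of its NK cell-like cells, but inside their interval of 0.0266% to 5.73%.

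**Figure D3:**
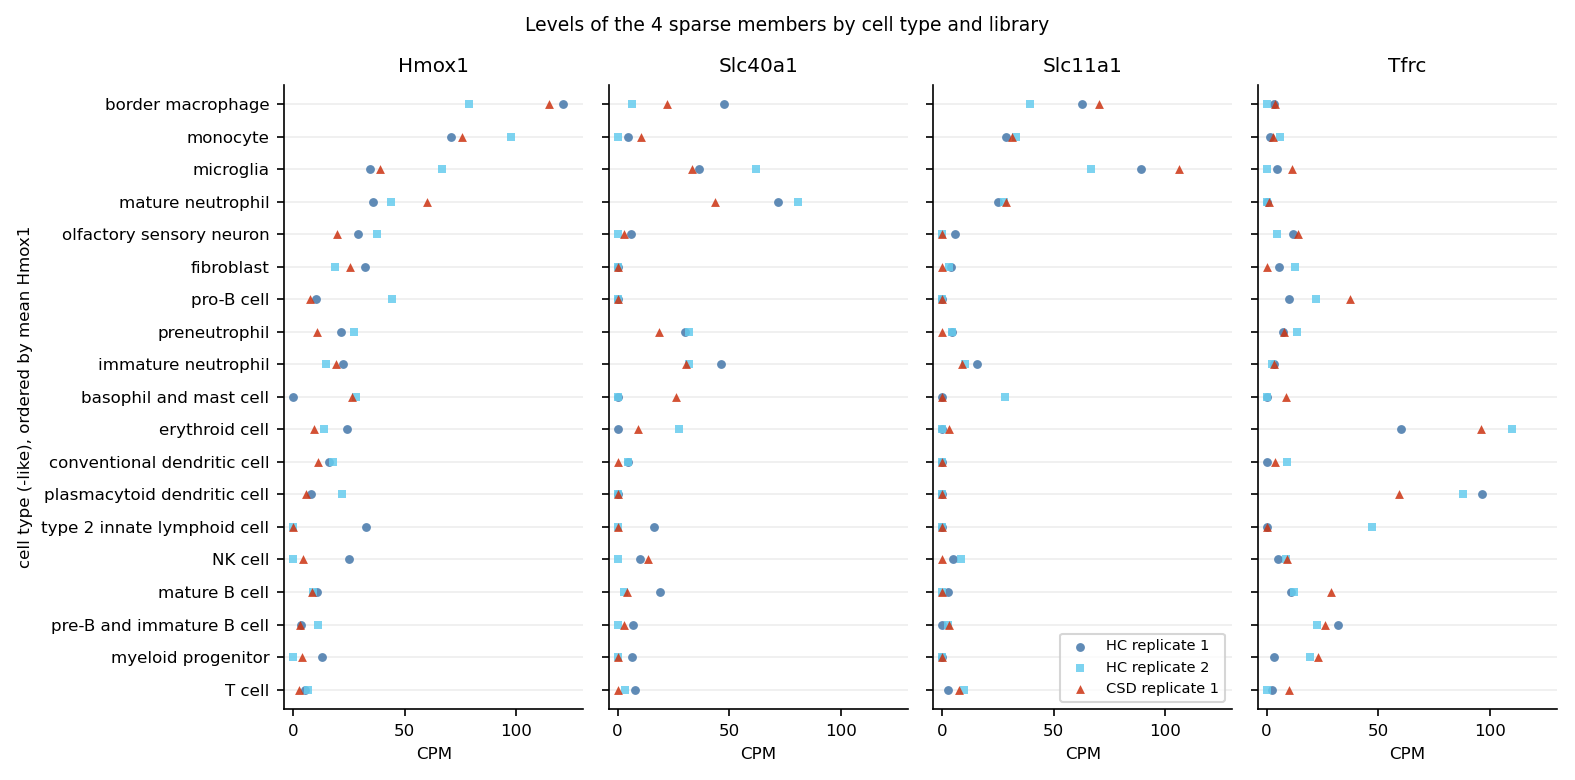
Levels of Hmox1, Slc40a1, Slc11a1 and Tfrc in CPM (linear axes) in 19 cell types, with a point for each library; endothelial cell-like cells are left out for their 38 cells. Border macrophage-like and monocyte-like cells lead Hmox1, mature neutrophil-like cells lead Slc40a1 at 43.6 to 80.6 CPM, microglia-like cells lead Slc11a1, and erythroid cell-like and plasmacytoid dendritic cell-like cells lead Tfrc.

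Slc11a1, the phagosomal metal transporter, marked resident macrophages and then other phagocytes. Microglia-like cells held 89.1 and 66.6 CPM in HC and 106 CPM in CSD (87.3 ± 19.9), from 72 UMIs. Border macrophage-like cells held 62.6 and 39.4 CPM in HC and 70.1 CPM in CSD (57.4 ± 16.0), overlapping with microglia-like cells and apart from monocyte-like cells (31.0 ± 2.28 CPM). Mature neutrophil-like cells held 24.9 and 27.6 CPM in HC and 28.8 CPM in CSD (27.1 ± 1.97), apart from immature neutrophil-like cells (11.7 ± 3.54 CPM). Preneutrophil-like cells had 4 UMIs in all, and 6 of the 20 types had none, conventional and plasmacytoid dendritic cell-like cells among them. The gene was detected in every library in microglia-like, border macrophage-like, monocyte-like, mature neutrophil-like and immature neutrophil-like cells. T cell-like cells also carried it in every library, at 2.59, 9.76 and 7.40 CPM from 7 UMIs, as did the unnamed clusters 15 and 21. The empty droplets held 14.1 to 16.4 CPM. It was not detected at this depth in conventional dendritic cell-like cells, where 3 UMIs would be 4.87, 13.5 and 11.2 CPM, or in myeloid progenitor-like cells, where they would be 9.80, 19.5 and 11.4 CPM.

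Tfrc, the uptake receptor, ran the other way. Erythroid cell-like cells, which need iron for haemoglobin, held 60.4 and 110 CPM in HC and 96.1 CPM in CSD (88.7 ± 25.5), and contributed 19.7% of all Tfrc UMIs from 0.879% of the cells. Plasmacytoid dendritic cell-like cells held 96.2 and 87.7 CPM in HC and 59.2 CPM in CSD (81.1 ± 19.4), and contributed 13.5% from 1.16% of the cells. The 2 types overlapped and were apart from the next, pre-B and immature B cell-like cells (26.9 ± 4.73 CPM). Pro-B cell-like (23.2 ± 13.6 CPM) and mature B cell-like cells (17.3 ± 10.1 CPM) overlapped with those. Mature neutrophil-like cells, the largest class at 1507 cells, had a single Tfrc UMI, and border macrophage-like cells had 4. The empty droplets held 5.14 to 10.7 CPM.

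Some genes had profiles over the 20 types close to those of the members, by Pearson's r of log2 CPM over 4935 genes; these are descriptions, since all types share the same 3 libraries and their free RNA. Ftl1 was closest to its copy Gm10116 (r = 0.97), then to the polyamine enzyme gene Sat1 (r = 0.84) and Lrrc25 (r = 0.83). Fth1 was closest to Gnaq (r = 0.80), Acvrl1 (r = 0.77) and Fcgrt (r = 0.76). Hmox1 lay near Cd14, the lipopolysaccharide co-receptor (r = 0.83), Ralb (r = 0.81) and the lysosomal ceramidase gene Asah1 (r = 0.76). Gnaq, Acvrl1 and Ralb were highest in endothelial cell-like cells, a type of 38 cells whose Fth1 level varied widely between libraries. Fcgrt was highest in fibroblast-like, Cd14 in border macrophage-like and Asah1 in microglia-like cells. Slc40a1 lay near C5ar1, the complement C5a receptor (r = 0.88), Cd33 (r = 0.84) and Siglece (r = 0.80), all highest in mature neutrophil-like cells. Slc11a1 lay near the Fc receptor genes Fcgr3 (r = 0.89) and Fcgr1 (r = 0.85) and Vsir (r = 0.87), all highest in microglia-like cells. Tfrc lay near the histone gene Hist1h4d and the DNA replication genes Gins4 (r = 0.76 for both) and Mcm7 (r = 0.73).

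Related types were then compared as 4 pairs in edgeR with the library as a block, which asks whether a member differs between types within the same libraries. The first pair set border macrophage-like against monocyte-like cells. All 4 members that could be tested were higher in border macrophage-like than in monocyte-like cells, where 32.7% of the 3087 genes tested were called in either direction and 17.8% were called higher. The log2 difference was 1.39 (SE 0.14) for Fth1 (edgeR adjusted p = 7.1e-09), 1.20 (SE 0.28) for Slc11a1 (adjusted p = 0.00132), 0.70 (SE 0.22) for Hmox1 (adjusted p = 0.0166) and 0.35 (SE 0.13) for Ftl1 (adjusted p = 0.0401). Slc11a1 passed the filter, a UMI in more than 15% of the cells of either type, only through border macrophage-like cells, the type where it is high. The calls of Ftl1 and Hmox1 depended on the scaling: with library totals in place of TMM factors they were 0.14 (adjusted p = 0.252) and 0.50 (adjusted p = 0.0750), while Fth1 (1.18) and Slc11a1 (1.00) kept theirs; the median of all genes tested was then −0.18. In DESeq2 Fth1 alone was called, and the differences of Slc11a1 (1.13), Hmox1 (0.63) and Ftl1 (0.34) were not. Without the filter Ftl1 (0.07, edgeR adjusted p = 0.903) and Hmox1 (0.43, adjusted p = 0.285) lost their calls, and Hmox1 also with the empty-droplet profile subtracted (0.78, adjusted p = 0.0789). Fth1 and Ftl1 were called without HC replicate 1, where Slc11a1 did not pass the filter, and Fth1 and Slc11a1 without CSD replicate 1. By CPM the MHC class II-rich cluster held 8713, 8177 and 9348 of Ftl1, against 8416, 7975 and 9283 in monocyte-like cells. Its Hmox1 was at 73.0, 70.0 and 113 CPM, against 70.9, 97.7 and 75.5. The Lyve1-rich cluster, of 168, 7 and 41 cells, held 12041, 8400 and 8890 CPM of Ftl1 and 157, 127 and 117 CPM of Hmox1. Fth1 was above monocyte-like cells in both clusters and every library.

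Without the filter Slc40a1 could be tested as well, and was higher in border macrophage-like than in monocyte-like cells (log2 difference 2.33, SE 0.50, edgeR adjusted p = 7.2e-05), on 51 against 10 UMIs, in a fit in which 10.9% of 14457 genes were called. Of those 51 UMIs, 44 came from HC replicate 1. Of the 59 genes of the iron lists found in the files, members included, 24 were tested with the filter, 10 were higher and 1 was lower (17.8% and 14.9% of all genes tested), and their median log2 difference was 0.36 against 0.01 for all genes tested. Trf, the plasma iron carrier transferrin, was higher in border macrophage-like cells (log2 difference 2.31, edgeR adjusted p = 9.4e-11). So were Blvrb, biliverdin reductase B (1.79, adjusted p = 7.4e-09), and Nfe2l2, the regulator of the oxidative stress response (0.98, adjusted p = 0.00024). Cd163, the receptor for haptoglobin bound to haemoglobin, was at 132 and 19.7 CPM in HC and 55.4 CPM in CSD against 1.51 CPM, 0 and 0 in monocyte-like cells. Hp, the haemoglobin-binding haptoglobin, was lower in border macrophage-like cells (−1.40, adjusted p = 2.9e-09). Trf, Blvrb, Nfe2l2 and Hp were also called in these directions with library totals, under which 8 genes of the lists were higher and 5 lower.

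The second pair set mature neutrophil-like against monocyte-like cells. Fth1 was higher in mature neutrophil-like cells by 1.79 on the log2 scale (SE 0.11, edgeR adjusted p = 6.6e-13), in a contrast in which 66.1% of 2984 genes were called and 32.6% were called higher, and it remained higher with library totals (1.02, adjusted p = 2.3e-07). Ftl1 was higher by 0.85 (SE 0.10, adjusted p = 1.0e-07) with TMM factors, but its difference was 0.07 with library totals (adjusted p = 0.572). Hmox1 was at 0.04 (SE 0.22, edgeR adjusted p = 0.871) with TMM factors and lower in mature neutrophil-like cells with library totals (−0.76, adjusted p = 0.00396). It passed the filter only through monocyte-like cells, the type where its CPM was the higher. With library totals the median of all genes tested was −0.85 in this contrast, with 407 genes higher and 1894 lower against 973 and 1000 with TMM factors, and of the 3 members tested only the heavy chain was called higher under both. In UMIs per cell, Fth1 stood at 11.7, 12.9 and 13.5 in mature neutrophil-like cells and at 22.0, 18.1 and 19.9 in monocyte-like cells. This was the reverse of the order by CPM. Ftl1 stood at 13.6 ± 1.16 and 41.3 ± 5.34 UMIs per cell, at median depths of 1359 and 4857 UMIs. The ratio of light to heavy chain, in which the scaling cancels, was 1.11, 0.990 and 1.11 in mature neutrophil-like cells, below the 1.81, 2.03 and 2.37 of monocyte-like cells. Slc40a1 could be tested only without the filter, where it was higher in mature neutrophil-like cells by 3.98 on the log2 scale (SE 0.35, edgeR adjusted p = 5.0e-28), in a fit in which 25.1% of 14370 genes were called.

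Among the iron genes, 23 were tested in this contrast, members included, of which 11 were higher and 5 lower in mature neutrophil-like cells (32.6% and 33.5% of all genes tested), with a median log2 difference of 0.32 against −0.06 for all genes tested. With library totals 7 were higher and 11 lower. Higher were Slc7a11, the cystine importer (4.93, edgeR adjusted p = 3.7e-18), Fbxl5, the iron sensor that marks iron regulatory protein 2 for degradation (2.38, adjusted p = 1.1e-11), Lcn2, the granule protein that binds siderophores (2.27, adjusted p = 3.0e-14), and Hp (1.87, adjusted p = 5.3e-13). Lower were Lrp1, a receptor for haem bound to haemopexin (−3.27, adjusted p = 2.3e-08), Blvra, which reduces the product of haem breakdown (−2.21, adjusted p = 6.5e-07), and the peroxidase gene Prdx1 (−1.86, adjusted p = 1.3e-11). These 7 genes were called in the same directions with library totals.

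**Figure D4:**
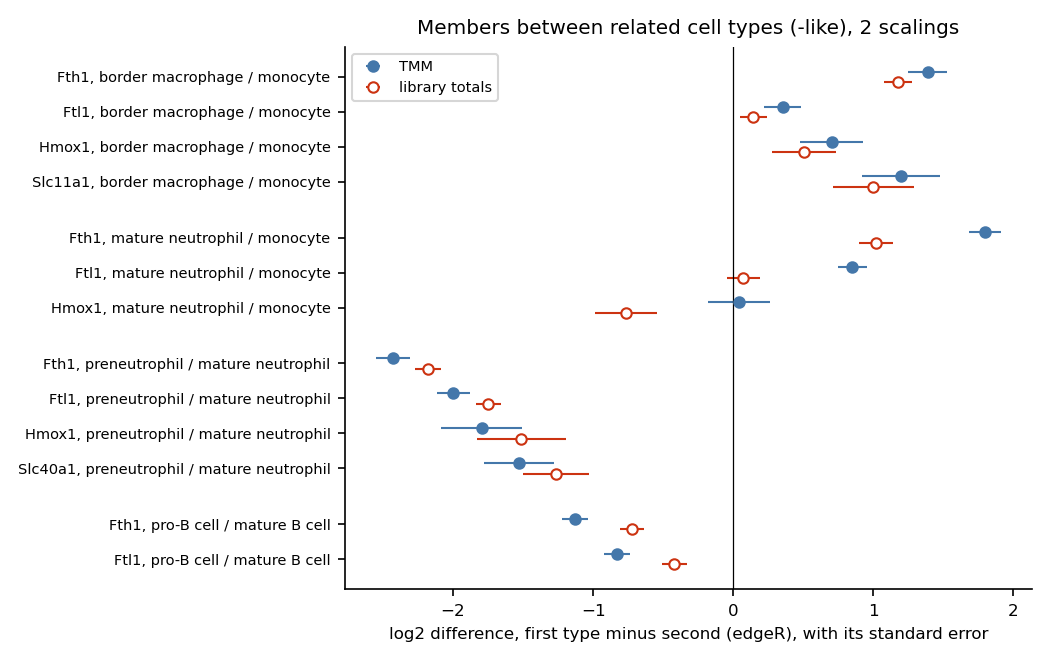
Log2 differences between pairs of cell types (first named minus second), points with standard errors from edgeR, filled for TMM factors and open for library totals. Only Hmox1 of mature neutrophil-like against monocyte-like cells changes sign between the scalings (0.04 and −0.76), and the points of preneutrophil-like against mature neutrophil-like cells lie below 0 under both.

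The third pair followed neutrophil maturation. All 4 members tested were lower in preneutrophil-like than in mature neutrophil-like cells under both scalings, in a contrast in which 56.3% of 4093 genes were called and 27.1% were called lower. In preneutrophil-like cells Fth1 was lower by 2.43 on the log2 scale (SE 0.12, edgeR adjusted p = 4.0e-46), Ftl1 by 2.00 (SE 0.12, adjusted p = 1.1e-37), Hmox1 by 1.79 (SE 0.29, adjusted p = 2.2e-08) and Slc40a1 by 1.53 (SE 0.25, adjusted p = 3.8e-08). With library totals these were −2.18, −1.75, −1.51 and −1.27, where the median of all genes tested was 0.32. Hmox1 and Slc40a1 passed the filter only through preneutrophil-like cells, where their level is the lower. Without CSD replicate 1 Hmox1 was at −0.96 (SE 0.39). With the empty-droplet profile subtracted, Fth1 was at −5.64 (SE 1.19) and Ftl1 at −2.85 (SE 0.21). That subtraction took from every type the share of free RNA estimated in neutrophil-like and monocyte-like cells of the library. In HC replicate 1 it left no Fth1 count in preneutrophil-like cells, so the size of −5.64 cannot be read. Without the filter Slc11a1 was lower too (−3.74, edgeR adjusted p = 9.4e-12), on 4 against 63 UMIs, in a fit in which 21.6% of 13990 genes were called. Tfrc went the other way in that fit (edgeR adjusted p = 0.00787), at 7.22, 13.7 and 7.62 CPM in preneutrophil-like cells and 0, 0 and 0.822 CPM in mature neutrophil-like cells, on 15 UMIs against 1. The empty droplets held 5.14, 10.3 and 10.7 CPM of Tfrc, near the level of preneutrophil-like cells. The intermediate class was between the others for Fth1, with 3604 and 3660 CPM in HC and 3386 CPM in CSD, apart from both.

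These are differences in the share of a cell's RNA and not in molecules per cell. Preneutrophil-like cells had a median of 10528 UMIs, immature neutrophil-like cells 3369 and mature neutrophil-like cells 1359. Counted per cell, Fth1 stood at 21.4, 18.6 and 18.6 UMIs in preneutrophil-like, 13.5, 11.6 and 13.8 in immature and 11.7, 12.9 and 13.5 in mature neutrophil-like cells. Slc40a1 stood at 0.333, 0.292 and 0.198 UMIs per cell in preneutrophil-like and at 0.102, 0.115 and 0.0706 in mature neutrophil-like cells. By UMIs per cell preneutrophil-like cells were thus above the mature class in every library, where by CPM they were below it, and the immature and mature classes overlapped for Fth1. Whether cells of a type held less RNA or less of it was captured cannot be told apart here.

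The other iron genes differed in both directions. Of 27 iron-list genes tested, members included, 7 were higher and 13 lower in preneutrophil-like cells (29.2% and 27.1% of all genes tested), with a median log2 difference of −0.43 against 0.05 for all genes tested. Among the higher in preneutrophil-like cells were the granule proteins that bind iron and siderophores, Ltf (lactoferrin, 2.80, edgeR adjusted p = 2.6e-52) and Lcn2 (0.98, adjusted p = 3.5e-14). Lower were Slc7a11 (−4.10, adjusted p = 2.3e-54), Fbxl5 (−2.61, adjusted p = 3.7e-26), Iscu, the scaffold of iron-sulphur clusters (−1.57, adjusted p = 2.0e-18), and Trf (−1.42, adjusted p = 1.4e-06). The genes named were also called in these directions with library totals, under which 9 were higher and 10 lower. Slc7a11 was at 605 and 693 CPM in HC and 643 CPM in CSD in mature neutrophil-like cells, and at 30.3, 95.9 and 40.3 CPM in preneutrophil-like cells. Fbxl5 was at 147, 159 and 151 CPM in the mature class and at 23.1, 32.0 and 34.9 CPM in preneutrophil-like cells.

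The fourth pair was the early against the mature B lineage, where both ferritin chains were lower in the precursor as well. Fth1 had a log2 difference of −1.13 in pro-B cell-like against mature B cell-like cells (SE 0.09, edgeR adjusted p = 1.7e-32) and Ftl1 of −0.83 (SE 0.09, adjusted p = 2.7e-17), in a contrast in which 35.7% of 2871 genes were called and 19.4% were called lower. With library totals, where the median of all genes tested was 0.39, they were −0.72 and −0.42, and both were still called. With the empty-droplet profile subtracted they were −2.50 and −1.62, with the same share of free RNA, which was not estimated in B lineage cells. Counted per cell, pro-B cell-like cells had 9.10 ± 0.361 UMIs of Fth1 and mature B cell-like cells 6.08 ± 0.562, the reverse of the order by CPM, at median depths of 2237 and 1550 UMIs. Of 15 iron-list genes tested, members included, 3 were higher and 7 lower in pro-B cell-like cells (16.3% and 19.4% of all genes tested), with a median log2 difference of 0.20 against −0.02 for all genes tested. Among the higher were Pcbp1, which delivers iron to ferritin (1.03, edgeR adjusted p = 0.00069), and Prdx1 (0.48, adjusted p = 0.0107). Blvrb was lower (−2.80, adjusted p = 3.0e-15). Lcn2 (−0.75), Hp (−0.63) and Ltf, neutrophil transcripts that were counted in every named type, were lower as well. Of the genes named only Hp lost its call with library totals (−0.23, edgeR adjusted p = 0.324), and the part of free RNA in Lcn2, Ltf and Hp was not tested.

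The comparison of CSD with HC was made within each of the 14 types that had at least 20 cells in every library. Of the 34 tests of members edgeR called 0, against 0.279% of 32279 gene-by-type tests over all genes, and 0 had an unadjusted p under the threshold. The lowest edgeR p of a member was 0.0770 before and 0.712 after adjustment. DESeq2 and the other settings tried also called 0. Fth1 log2 differences (CSD minus HC) ran from −0.26 in pre-B and immature B cell-like cells to 0.37 in fibroblast-like cells, and those of Ftl1 from −0.18 in olfactory sensory neuron-like cells to 0.35 in microglia-like cells. The median standard error was 0.21.

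In mature neutrophil-like cells, the largest class, Fth1 had a log2 difference of 0.00 (SE 0.12) and Ftl1 of 0.08 (SE 0.13). Without the filter Fth1 was at 0.27 (SE 0.14, edgeR adjusted p = 0.719) and Ftl1 at 0.34 (SE 0.14, adjusted p = 0.358), the latter with an unadjusted p of 0.0119. Ftl1 in immature neutrophil-like cells was then at 0.37 (SE 0.14, edgeR adjusted p = 0.309), with an unadjusted p of 0.00997. In border macrophage-like cells they were 0.07 (SE 0.21) and −0.01 (SE 0.24). In fibroblast-like cells Fth1 was at 5948 and 5432 CPM in HC and 7157 CPM in CSD, the CSD level resting on 25 cells. The 2 fibroblast-like clusters went opposite ways: cluster 13 held 5998, 5140 and 9277 CPM from 95, 69 and 10 cells, and cluster 19 held 5754, 6548 and 4814 CPM from 43, 25 and 15 cells. In microglia-like cells Ftl1 was at 5353 and 4610 CPM in HC and 6360 CPM in CSD. In both, the CSD value lay above both HC values, as it did in 32.5% of gene-by-type values over all genes tested (below both in 34.5%), and neither difference passed the edgeR test (adjusted p = 0.712 and 0.979).

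The sparse members had wider errors. Slc40a1 was testable only in preneutrophil-like cells (log2 difference −0.70, SE 0.48, edgeR adjusted p = 0.998), and Hmox1 in border macrophage-like (0.12, SE 0.40), monocyte-like (−0.17, SE 0.27) and preneutrophil-like cells (−1.05, SE 0.59, adjusted p = 0.998). Slc11a1 had log2 differences of 0.32 (SE 0.41) in border macrophage-like and 0.38 (SE 0.39) in microglia-like cells. Tfrc passed the filter in none of the 14 types. In mature neutrophil-like cells, tested without the filter, Hmox1 was at 35.9 and 43.8 CPM in HC and 60.0 CPM in CSD (log2 difference 0.93, SE 0.33, unadjusted p = 0.00539 and edgeR adjusted p = 0.218), and Slc40a1 was lower in CSD than in both HC libraries (−0.48, SE 0.31, edgeR adjusted p = 0.879). Neither was past the threshold, in a fit in which 1.33% of 12909 genes were called.

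**Figure D5:**
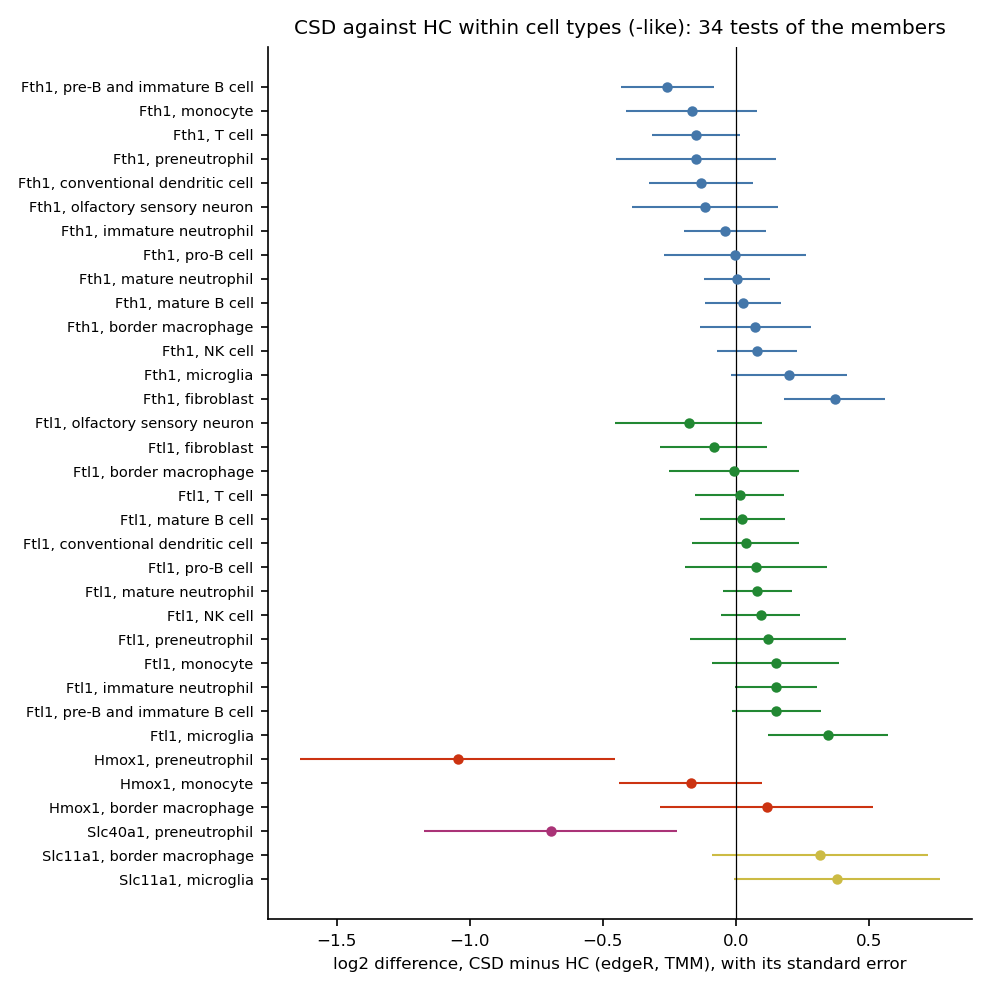
Log2 difference of CSD minus HC for each of the 34 tests of members within cell types, with its standard error (edgeR, TMM factors); each row is a member in a type. Ferritin differences lie between −0.26 and 0.37, and the widest bars belong to Hmox1 and Slc40a1 in preneutrophil-like cells; no row was called.

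Whether the difference between CSD and HC itself differed between neutrophil-like and other phagocytes was tested as an interaction. No member was called against monocyte-like cells, where 2.26% of 3004 genes were, or against border macrophage-like cells, where 1.97% of 2083 genes were. Against monocyte-like cells the difference of log2 differences was 0.23 (SE 0.11) for Fth1 (edgeR adjusted p = 0.344), 0.05 (SE 0.10) for Ftl1 and 0.65 (SE 0.36) for Hmox1 (adjusted p = 0.461). Against border macrophage-like cells it was 0.05 (SE 0.29) for Fth1, 0.25 (SE 0.29) for Ftl1, 0.39 (SE 0.41) for Hmox1 and −0.38 (SE 0.60) for Slc11a1. In these fits Hmox1 and Slc11a1 passed the filter only through the monocyte-like or border macrophage-like cells.

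Of the other iron-list genes, Hp in immature neutrophil-like cells was the only one called in any of the 14 types. It was at 1426 and 1679 CPM in HC and 2910 CPM in CSD (log2 difference 0.97, SE 0.15, edgeR adjusted p = 0.00106), in a type where 2.32% of 1597 genes were called. Hp was also highest in the CSD library in mature B cell-like cells, with 232, 379 and 526 CPM. Globin genes, made by red cell precursors, were counted there too: all 4 were highest in CSD, summing to 1895, 3289 and 5037 CPM in immature neutrophil-like cells. Genes of the response to tissue dissociation were lower in CSD, with 8 of 10 below both HC libraries and sums of 1277, 1622 and 1007 CPM in the same cells. Over the genes tested in that type, CSD lay above both HC libraries in 26.1% and below both in 42.8%. The part of either in the result for Hp was not tested.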

How the data were processed

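Meninges of 3 pools of 4 mice were profiled by 10x Genomics 3′ v2 scRNAseq. The deposited values are raw UMI counts per gene and barcode, which the authors made with Cell Ranger 2 on mm10, with no cells called and no normalization. The 6 members and all gene lists were chosen with earlier results of these data known. Barcodes were kept at 500 UMIs or more, within the study's limits on genes and below 8.3% mitochondrial UMIs, which left 7057 cells. Cells were clustered (scanpy 1.11.5, Leiden resolution 1, libraries aligned by mutual nearest neighbours) without the iron-list and mitochondrial genes. Genes correlated with those were not removed. Clusters were named from fixed markers. Doublets scored by Scrublet were kept, and left out as an alternative. They were 50 and 16 cells in HC at the automatic threshold and 141 in CSD, where the top 5.1% of scores was taken instead, so the counts cannot be compared.

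UMI counts were summed per type and library and tested with edgeR 4.0.16 (quasi-likelihood, TMM factors, R 4.3.3) on genes with a UMI in more than 15% of the cells of a tested type, with Benjamini-Hochberg adjustment over all genes of the comparison and a threshold of 0.05. Contrasts of types had the library as a block. The script was tested on simulated data. Levels are CPM. Depth was 8814690 to 10206236 UMIs per library. Shares of cells were compared after thinning each cell to 500 UMIs, with exact 95% intervals. A count of 0 was read as allowing 3. The named genes were the 6 members, at most 4 called genes of each list and comparison by size of change, and the 3 genes most like each member. Alternatives were DESeq2 1.42.0, library totals, other filters, subtraction of the profile of empty droplets, thinning, other clusterings, and leaving out each library, doublets, or low-depth barcodes of HC replicate 2. The last, and the MHC class II-rich border macrophages alone, were added after the data were seen. Elements were searched in GENCODE M21 transcripts. Of the 61 genes on the lists, Flvcr1 and Flvcr2 were not analysed here. A gene of the lists that the rule would name is not reported here.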

Additional observations from a re-analysis of the deposited data

Results flagged for a closer look

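The CSD library lay above both HC libraries in some of the 14 tested cell types and below both in others for each ferritin chain, on CPM. For Fth1 it was above both in 5 types and below both in 7. For Ftl1 it was above both in 7 types and below both in 1. Over all genes that passed the filter, CSD lay above both HC libraries in 32.5% and below both in 34.5% of 32279 gene-by-type values. The difference between the types was not tested over all 14, the types share the same 3 libraries, and no single test within a type was called.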

How the results depend on the processing

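For CSD against HC no paired analysis was possible, because the pools held different mice and CSD had a single pool. The contrasts between types and the interactions had the library as a block. Within cell types no member was called under any setting. The count of genes called over the 14 types was 90, and became 30 with DESeq2, 49 without correction before clustering, 48 with the empty-droplet profile subtracted, 47 after thinning, 144 without doublets, 148 at a mitochondrial limit of 5%, 487 with filterByExpr and 587 without a filter; it was 5 where the MHC class II-rich border macrophages stood for their type. Log2 differences that changed sign there were those with the empty-droplet profile subtracted for Fth1 in T cell-like (0.18), preneutrophil-like (0.86) and pro-B cell-like cells (0.79) and Ftl1 in olfactory sensory neuron-like cells (0.52). The subtraction left no Fth1 count in preneutrophil-like cells of HC replicate 1. Thinning changed the sign for Ftl1 in fibroblast-like (0.31) and preneutrophil-like cells (−0.46), leaving out the filter for Fth1 in immature neutrophil-like cells (0.17), and the MHC class II-rich cells alone for Slc11a1 (−0.14). The other 358 values kept their sign or moved by less than their standard error.

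Between types, border macrophage-like against monocyte-like cells gave 4 members called, 1 with DESeq2 (Fth1), 2 with library totals, 1 after thinning and 2 to 3 with a library left out. Genes called were 1010, and 512 with DESeq2, 1577 without a filter, 176 after thinning and 650 to 856 with a library left out. For Ftl1 the call was also lost without the library block (0.36). Mature neutrophil-like against monocyte-like cells gave 1973 genes, 3614 without a filter and 399 after thinning, and Hmox1 changed sign without a filter (−0.20), with library totals (−0.76) and with a library left out (−0.36 to 0.23). Preneutrophil-like against mature neutrophil-like cells gave 4 members, 2 after thinning, and 2305 genes, 1368 with DESeq2 and 281 after thinning. Pro-B against mature B cell-like cells gave 1026 genes, 460 with DESeq2, 150 after thinning and 448 to 870 with a library left out, fewest without HC replicate 2. Library totals split the calls 405 higher to 783 lower for border macrophage-like against monocyte-like, 1563 to 816 for preneutrophil-like against mature neutrophil-like and 891 to 277 for pro-B against mature B cell-like cells, in place of 549 to 461, 1194 to 1111 and 468 to 558.

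For the interaction no member was called under any setting. Genes called against border macrophage-like cells were 41, and 1 with DESeq2, 26 without a filter and 12 after thinning. Against monocyte-like cells they were 68, and 1 with DESeq2, 11 without the low-depth barcodes, 111 with library totals, 20 without a filter and 7 after thinning. Hmox1 changed sign with the MHC class II-rich cells alone (−0.23) and Ftl1 with library totals (−0.12). By thinned share of cells in place of CPM, 3 of 6 members kept their highest type (Hmox1, Slc40a1 and Slc11a1). The cause of these changes was not tested, except that thinning leaves fewer UMIs. Depth limits Slc40a1, Slc11a1 and Tfrc, which had 480 UMIs or fewer in all cells.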

Other observations

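The clusters that carried no cell type name held ferritin as well. Cluster 15 had a median of 11255 UMIs and was led by Prtn3, Ctsg and cell division genes. It held 5794 and 5676 CPM of Ftl1 in HC and 7027 CPM in CSD, and 10.2% of all Ftl1 UMIs from 2.25% of the cells. Its Fth1 levels were 2689 and 2512 CPM in HC and 2914 CPM in CSD. Slc40a1 was nearly absent from it, with 1 UMI in each library. Cluster 21, led by interferon-induced genes such as Ifit3 and Isg15, held 7660 and 5121 CPM of Fth1 in HC and 5781 CPM in CSD, and 6521, 6362 and 6978 CPM of Ftl1, above the empty droplets for Ftl1 in all 3 libraries. Oligodendrocyte and Schwann cell-like cells, 19 in all, had the lowest ratio of Ftl1 to Fth1 UMIs of any group (0.258 ± 0.116), from too few cells to be ranked. They also held the highest level of Trf, at 2498, 2462 and 2733 CPM (HC replicate 1, HC replicate 2, CSD replicate 1).

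In erythroid cell-like cells, other genes of iron use were high beside Tfrc. Slc25a37, the mitochondrial iron importer mitoferrin, was at 157 and 370 CPM in HC and 360 CPM in CSD. Fech, which inserts iron into haem, was at 314, 329 and 322 CPM. Blvrb was at 1557, 1042 and 1165 CPM. These values come from 10, 11 and 41 cells and were not tested.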
